A study of Mus musculus with 8 samples.

Results

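The 2 gene families that act on opposite sides of protein ubiquitylation are described here, namely the ubiquitin-specific proteases (Usp) and the F-box genes, as they appear in one table of Argonaute-bound RNA from mouse forebrain. Members were all symbols named as a sense gene in that table that begin with Usp, Fbxo, Fbxl or Fbxw followed by a number, with Fbxo32 left out. They came to 88 of 9962 gene symbols, 43 of them Usp and 45 F-box (22 Fbxo, 13 Fbxl and 10 Fbxw), and they were named in 448 of 70142 read clusters, 255 Usp and 193 F-box. A cluster is a stretch of the genome covered by at least 10 reads, which was the lowest count in the table. The pattern also takes Usp6nl, which encodes a Rab GTPase-activating protein and not a protease. It had a single intronic cluster of 106 reads and is kept in the Usp counts.

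The study applied FLAG-Ago HITS-CLIP, in which RNA is crosslinked by ultraviolet light to a Flag-tagged Argonaute protein (Ago2), immunoprecipitated with the M2 FLAG antibody and sequenced, to look for targeting by miRNA seeds in neurons that express Camk2a. Of 8 libraries in 3 experiments, 5 came from Camk2a-cre; Rosa-Stop fl/fl-Flag-Ago2 mice, where the Camk2a promoter drives Cre, which removes a stop ahead of Flag-Ago2 in the Rosa26 locus. The other 3 were controls with the same Rosa-Stop fl/fl-Flag-Ago2 allele and no Cre. All mice were 8 to 14 weeks old, and each immunoprecipitation used a portion of one forebrain, so the starting material held every forebrain cell type. The table gives 1 read count per cluster for the whole study, with 0 columns for a library or group. The level in control mice and the spread between mice therefore cannot be set beside any value, no test of Flag-Ago2 against control is possible, and every result is a description of this pooled set of reads.

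The table held 1834586 reads in all, of which 13289 (0.724%) lay in Usp or F-box clusters. In a list of 4 markers for each of 5 cell types, all 4 markers of excitatory forebrain neurons had exonic clusters (34 to 618 reads, Camk2a the highest). So did all 4 astrocyte markers (58 to 1105 reads), 3 of 4 interneuron markers and 3 of 4 oligodendrocyte markers, and 2 of 4 microglial markers (Cx3cr1 with 33 reads and Csf1r with 23). Pvalb, Mog, P2ry12 and Tmem119 had no exonic cluster. How much of any Usp or F-box value comes from cells other than Camk2a neurons was not tested. Shares below carry 95% Wilson intervals, which cover counting error only. They treat clusters as independent, although a gene can hold several clusters. PCR copies among the reads were not marked by molecular identifiers.

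As background, ubiquitin is attached to proteins through a chain of activating, conjugating and ligating enzymes. F-box proteins are the exchangeable substrate receptors of the SCF ligases: the F-box binds Skp1, which joins it to the cullin Cul1, while WD40 repeats (Fbxw), leucine-rich repeats (Fbxl) or other domains (Fbxo) hold the substrate. Ubiquitin-specific proteases are the largest group of enzymes that take ubiquitin off again, and in neurons both families act on receptors, synaptic proteins and transcription factors. Argonaute carries a miRNA whose bases 2 to 7, the seed, pair with a complementary 6-mer in the RNA, most often studied in the 3' UTR.

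The sites below are those of the deepest 3' UTR cluster of each family (Usp12, Fbxw7), of the deepest miR-128 cluster of each family (Fbxo3, Usp37), of the miR-128 8-mer in an F-box 3' UTR (Fbxl20), of the other 3' UTR cluster of Fbxw7, and of coding clusters with an 8-mer in Usp9x and Usp38. In each miRNA the capitals mark bases 2 to 8, and in each site they mark the 6-mer complementary to bases 2 to 7. Mature miRNAs are from RefSeq (GRCm38.p6) and sites from GENCODE M21 transcripts (mm10, the same assembly), all written 5' to 3' on the transcript's strand.
miR-181a-5p: aACAUUCAacgcugucggugagu
Usp12 3' UTR: caagtggtatgacagtggctGAATGTaact
miR-223-3p: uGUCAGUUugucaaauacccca
Fbxw7 3' UTR: agaagagacaagagaccgtaACTGACagga
miR-128-3p: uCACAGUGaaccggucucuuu
Fbxo3 3' UTR: agagactgcaggaaggactgACTGTGcaaa
Usp37 3' UTR: atatagtctctttttttaatACTGTGatca
Fbxl20 3' UTR: gtgagatcagcctcagctacACTGTGacac
miR-29a-3p: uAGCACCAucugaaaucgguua
Fbxw7 3' UTR (cluster of 12 reads): tggatataattcttgatgctGGTGCTagaa
Usp9x coding sequence: ttgtggggctgaaaaatgctGGTGCTactt
miR-30a-5p: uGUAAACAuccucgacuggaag
Usp38 coding sequence: tctggactgtgctgaaacttGTTTACaaga

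Most protein-coding genes of the Usp family were represented: 43 of 56 annotated genes (76.8%, 64.2 to 85.9) were in the table. For F-box genes the count was 45 of 77 (58.4%, 47.3 to 68.8), and for all protein-coding genes 9553 of 21842 (43.7%). Among Usp genes, Usp1, Usp18, Usp26, Usp39, Usp43, Usp44, Usp51, Usp9y and 5 copies of Usp17l were sense genes of no cluster analysed here. Among F-box genes the 32 so placed included 13 Fbxw genes, 11 of them on chromosome 9, which carries a tandem array of similar copies. The 3 members from that array, Fbxw14, Fbxw19 and Fbxw24, had 1 intronic cluster each with 40, 27 and 16 reads, and their reads are uncertain because near-identical copies can share them.

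An exonic cluster (3' UTR, CDS or 5' UTR) was present in 37 of the 43 Usp genes (86.0%, 72.7 to 93.4) and in 32 of the 45 F-box genes (71.1%, 56.6 to 82.3), against 8110 of all 9962 genes (81.4%). The other 6 Usp genes and 13 F-box genes had intronic clusters only. A 3' UTR cluster was present in 18 Usp genes (41.9%, 28.4 to 56.7) and 20 F-box genes (44.4%, 30.9 to 58.8), against 48.8% of all genes. Both families thus had 3' UTR clusters in about the share of genes seen over the whole table.

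The division of clusters over the transcript was described by region. Of the Usp clusters, 96 (37.6%, 31.9 to 43.7) lay in coding sequence, 38 (14.9%, 11.1 to 19.8) in 3' UTRs, 2 in 5' UTRs and 119 (46.7%, 40.6 to 52.8) in introns. Of the F-box clusters, 49 (25.4%, 19.8 to 32.0) lay in coding sequence, 39 (20.2%, 15.1 to 26.4) in 3' UTRs, 4 in 5' UTRs and 101 (52.3%, 45.3 to 59.3) in introns. Over all genes the shares were 22.8% coding, 16.5% 3' UTR, 1.64% 5' UTR and 59.0% intronic. The coding share of Usp clusters thus lay above that of all genes and their intronic share below it, each outside the Usp interval. Clusters that ran over an exon edge count as coding here, because coding sequence is ranked before intron. These were 75 of the 96 Usp coding clusters, against 8751 of the 12990 in all genes that touched an annotated exon. The shares without them were not compared. The 3' UTR share of all genes lay inside both families' intervals. The intervals of the families overlapped each other in every region, at the edge for coding sequence, and their difference was not tested.

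Usp genes have long coding sequences, with a median of 2.937 kb among the members, against 1.607 kb for F-box genes and 1.645 kb for all genes in the table. Counted per length over every annotated gene of the family, Usp coding sequence still held 56.9 clusters per 100 kb, F-box coding sequence 40.2 and that of all protein-coding genes 35.9. In 3' UTRs the densities were 33.7, 35.9 and 27.7 clusters per 100 kb. In introns they were 40.4, 33.8 and 33.9 clusters per Mb. These densities also reflect how many of a family's genes are in the table, and the coding ones include clusters that ran over an exon edge. Among genes with a coding cluster only, median coding reads per kb were lower for Usp genes, 15.9 (35 genes), than for F-box genes, 28.2 (24 genes), or all genes, 21.3.

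**Figure D1:**
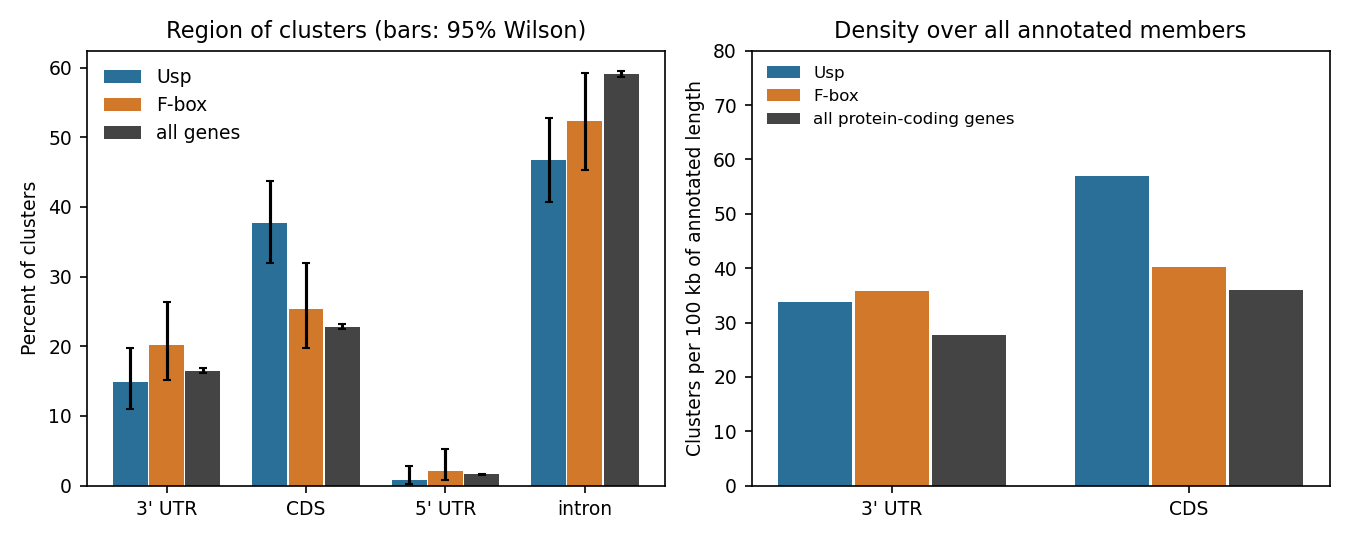
The left panel plots the percent of clusters in each transcript region for Usp genes, F-box genes and all genes, with 95% Wilson intervals, and the right panel plots clusters per 100 kb of annotated 3' UTR or coding length over all annotated genes of each group. The Usp coding bar reaches 37.6% and 56.9 clusters per 100 kb, above the other bars in that region. Coding bars include clusters that run over an exon edge.

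Over all exonic clusters the median depth was near that of the table. Exonic clusters had a median of 21 reads in Usp genes, 19 in F-box genes and 21 in all genes. By region, the medians were 17.5 reads for Usp and 16 for F-box clusters in 3' UTRs (22 for all genes), 22 and 20 in coding sequence (21 for all genes) and 17 and 19 in introns (18 for all genes). About 50.2% of Usp clusters and 52.3% of F-box clusters held fewer than 20 reads, so many of them stand on a count with little precision. Clusters of at least 100 reads numbered 11 in Usp genes (4.31%) and 3 in F-box genes (1.55%), against 1.58% of all.

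**Figure D2:**
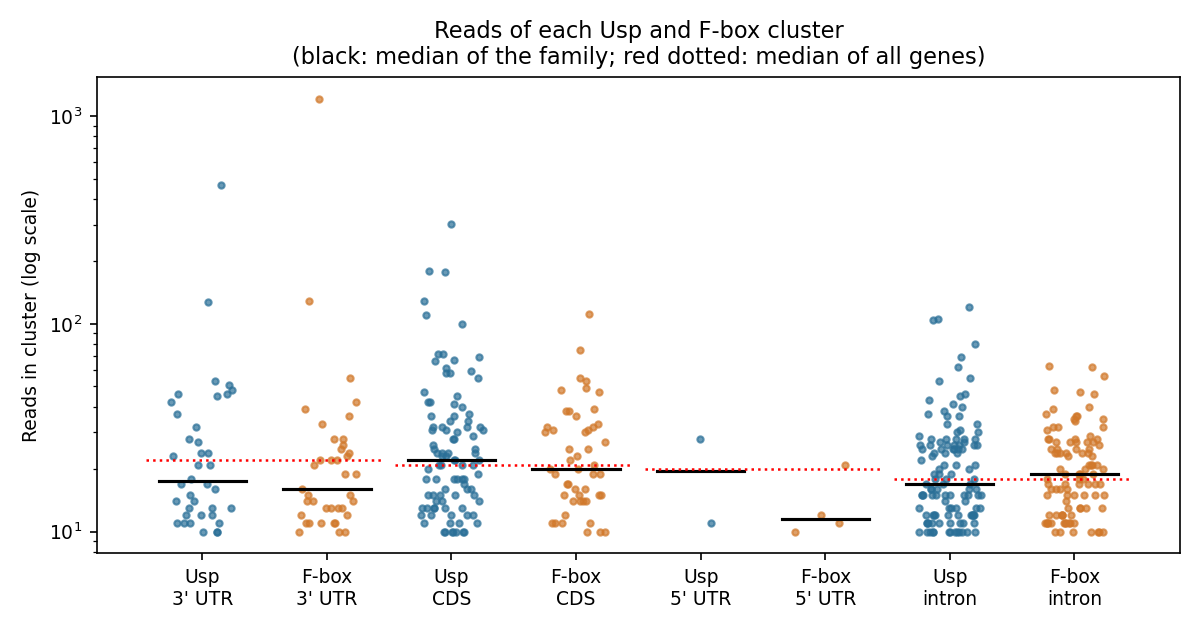
Each point is 1 cluster of a Usp or F-box gene, placed by transcript region, with its reads on a log axis. Black lines give the family's median and red dotted lines the median of all genes. The F-box cluster at 1218 reads and the Usp cluster at 468 reads, both in 3' UTRs, stand above all other points.

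The 37 Usp genes with an exonic cluster had a median of 58 exonic reads (quartiles 31 and 196), and the 32 F-box genes a median of 53 (39 and 87.75), against 48 for all genes (23 and 102). Per kb of exon the medians were 12.1 for Usp, 12.7 for F-box and 12.9 for all genes with an exonic cluster and a known length. The typical member was thus at the level of the typical gene of the table. The leading Usp gene held 10.8% of the family's 4817 exonic reads and the leading 5 held 40.6%, and in the F-box family they held 38.7% and 58.9% of 3450. The F-box values rest on 1 cluster of Fbxw7. Without it the leading F-box gene held 14.4% and the leading 5 held 36.5% of 2232 reads, and without the deepest Usp cluster the Usp shares were 9.34% and 40.1%.

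**Figure D3:**
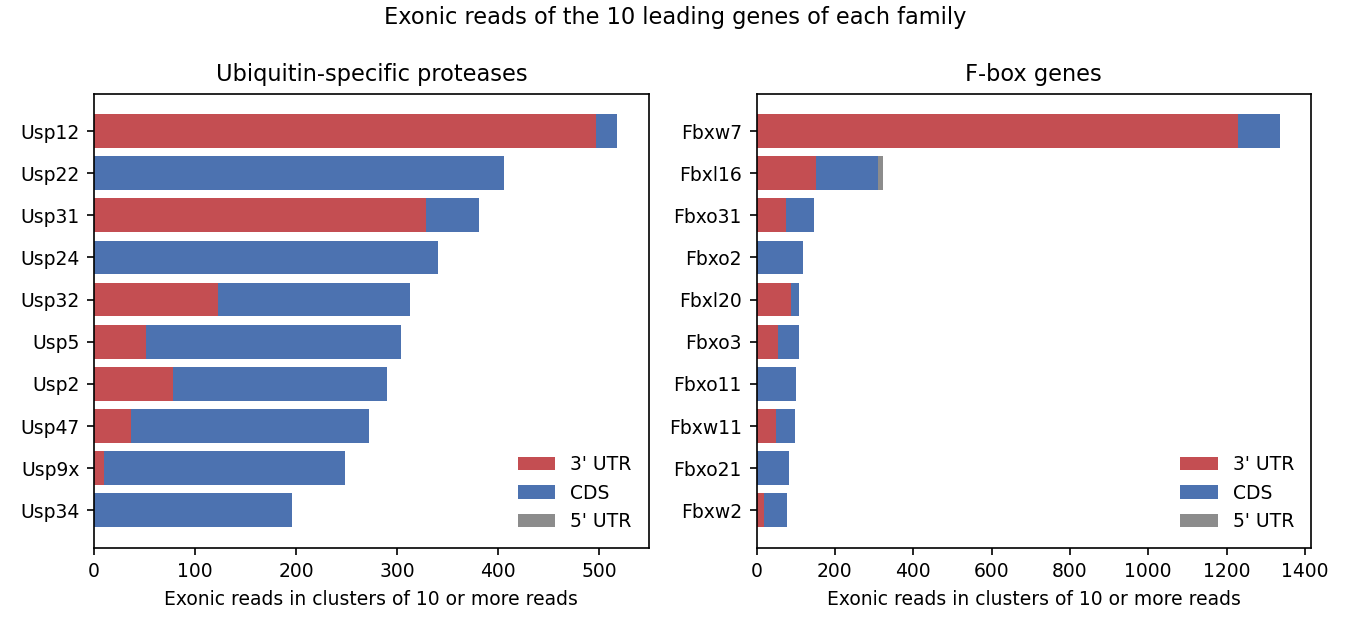
Bars give the exonic reads of the 10 leading genes of each family, divided into 3' UTR, CDS and 5' UTR clusters. Usp12 (518 reads) and Fbxw7 (1336) are almost wholly 3' UTR. All exonic reads of Usp22, Usp24 and Usp34 are in clusters counted as coding, of which the deepest of Usp22 and Usp24 run over an exon edge.

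Among the ubiquitin-specific proteases Usp12, which works with the WD40 protein Wdr48, had the most exonic reads, 518, and the most per kb of exon, 120. Of these, 497 were in the 3' UTR, in clusters of 468, 17 and 12 reads. The deepest, at chr5:146736301-146736413 on the minus strand, lay in the last of 9 exons with its centre 1322 bases after the stop codon. Its miR-181 match, printed above, occupies chr5:146736358-146736363, is an 8-mer (base 8 paired and an A opposite base 1) and sits -3.5 bases from the cluster's centre, that is, on the 5' side. The other fixed brain families had no match in that cluster. Usp46, the close relative of Usp12, carried 159 exonic reads, 64 of them in 4 clusters of the 3' UTR and 95 in 2 coding clusters. The deep miR-181 cluster of Usp12 thus had no counterpart of like depth in Usp46, whose deepest 3' UTR cluster held 23 reads.

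Usp31 had the most 3' UTR clusters of any member, 9, with 128, 53, 45, 28, 27, 13, 13, 12 and 10 reads, along a 3' UTR of 6.163 kb. The first of these, at chr7:121642796-121642885 on the minus strand, lay 5344 bases after the stop codon and held no match to any of the 16 fixed brain families. Neither did the next, 415 bases after the stop codon. The remaining 3' UTR clusters of the gene, except that of 10 reads, held 6-mers of miR-27 (3 clusters), miR-128 (2), miR-103 (2), miR-29, miR-132, miR-181, miR-9 and miR-30. In Usp31, as in Fbxw7, the deepest 3' UTR cluster was thus one without a match to the brain families searched.

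Usp32, a membrane-attached protease, had 313 exonic reads in 9 clusters, 123 of them in 4 clusters of the 3' UTR. The deepest of those, 48 reads at chr11:84985650-84985852, held a miR-124 match. Usp2, a protease of the circadian clock, had 290 reads, 78 of them in the 3' UTR and the others in coding sequence. Usp5, which takes apart unanchored ubiquitin chains, had 304, of which 253 were coding. Its 3' UTR cluster of 51 reads held a miR-26 match at -101 bases from the centre. Usp37, a protease of the cell cycle, had 140 exonic reads. Its 3' UTR cluster at chr1:74437075-74437210 held the most reads of the 6 Usp clusters with a miR-128 match, 46.

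In 3 of the 10 leading Usp genes no 3' UTR cluster was present at all. Usp22, the deubiquitinase of the SAGA coactivator, carried 406 exonic reads in 4 coding clusters of 302, 58, 26 and 20 reads, or 258 reads per kb of coding sequence. The deepest, at chr11:61163715-61163822 on the minus strand, touched exon 4 of 13, reached past its edge and held a miR-9 match. Usp24, one of the large proteases, had 7 coding clusters with 340 reads, the deepest of 178 reads at exon 19 of 68 (chr4:106370094-106370232) with matches to miR-124 and miR-9. Usp34, known from Wnt signalling, had 10 coding clusters of 10 to 59 reads over 10.805 kb of coding sequence, 196 reads in all. The depth of Usp22 therefore came mainly from 1 cluster, whereas the reads of Usp34 were scattered.

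The X-linked protease Usp9x had 248 exonic reads, 238 of them in 6 coding clusters of 66, 61, 47, 31, 21 and 12 reads. The first, in exon 31 of 45, holds the miR-29 8-mer printed above at 12.5 bases from its centre. Usp47, known from DNA base excision repair, had 272 reads, 235 of them in 5 coding clusters. Usp38, chosen after its values were seen, had a single exonic cluster, in the coding sequence of exon 9 of 10 (chr8:80985666-80985795, minus strand), with 110 reads. It holds a miR-128 6-mer at -5 bases and the miR-30 8-mer printed above at 10 bases from the centre. The miR-128 6-mer is preceded by a G, which completes the 6-mer GACTGT, part of the complement of the 5' adapter of the library kit. Coding clusters with a match near the centre were thus present in Usp9x and Usp38 as well as in the 3' UTR group.

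Fbxw7, the substrate receptor for cyclin E, Myc, Jun and Notch, stood first among F-box genes with 1336 exonic reads, 245 per kb of exon. The next F-box gene had 322. A single 3' UTR cluster at chr3:84977657-84977880 on the plus strand held 1218 of these reads, in the last of 14 exons and with its centre 227 bases after the stop codon of a 1.657 kb 3' UTR. It held no match to any of the 16 brain families. Of the 10 families of other tissues it matched miR-223, a miRNA best known from myeloid cells, and miR-143. The miR-223 match at chr3:84977777-84977782 is an 8-mer, 11 bases from the centre. Microglial markers, the myeloid cells of the list above, held 56 exonic reads in all, with P2ry12 and Tmem119 at none. The part of myeloid cells in this cluster was not tested. The other 3' UTR cluster of Fbxw7 had 12 reads and the miR-29 8-mer printed above, with further matches to miR-27 and miR-103. Its 6 coding clusters had 11 to 25 reads, and 91.2% of its exonic reads lay in the one deep cluster.

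Fbxl16, an F-box protein with leucine-rich repeats, had 322 exonic reads, 152 in 3' UTR, 159 in coding and 11 in 5' UTR clusters, or 89.8 per kb of exon. Its deepest cluster, 129 reads at chr17:25819359-25819542, ran over the end of the coding sequence and is named as 3' UTR, CDS and intron, so its placing in the 3' UTR follows from the order of regions used. The deepest F-box coding cluster was also in Fbxl16, 111 reads in exon 3 of 6. Fbxo2, which recognises sugar chains on glycoproteins and is abundant in brain, had 118 reads in 3 coding clusters of 55, 32 and 31 reads and none in its short 3' UTR, which at 91.6 per kb of exon put it next after Fbxw7. High values per kb therefore came from 3' UTR, mixed and coding clusters in turn among the 3 leading F-box genes.

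Fbxl20, which acts on the active-zone protein Rim at synapses, had 4 clusters, of 36, 22, 16 and 15 reads, along 7.128 kb of 3' UTR. The cluster of 16 reads holds the miR-128 8-mer printed above, at -56.5 bases from the centre. Fbxo31, which targets cyclin D, had 148 exonic reads in 9 clusters, 4 of them in the 3' UTR with 28, 22, 14 and 11 reads. Fbxw11, one of the receptors that bind phosphorylated beta-catenin, had 99 reads, with 19, 11, 11 and 10 reads in 4 clusters of the 3' UTR. These 3 genes shared the largest number of 3' UTR clusters in the F-box family and none of those clusters was deep.

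Fbxo3 had 108 exonic reads, 55 in its 3' UTR cluster at chr2:104060414-104060517 and 53 in a coding cluster. The miR-128 6-mer of the 3' UTR cluster lies 5 bases from the centre and overlaps a miR-223 6-mer 1 base from it. Fbxo7, a gene of inherited parkinsonism, had a 3' UTR cluster of 42 reads with matches to miR-9 and miR-138. Fbxo10 had one of 39 reads with a miR-9 match. Fbxo11, whose substrate is the repressor Bcl6, had 102 reads in 2 coding clusters of 75 and 27, and Fbxo21 had 84 and Fbxw2 79 exonic reads. In Fbxo21, 49 of these reads lay in a cluster named as CDS and intron. Only 1 of its 133 bases lay in an annotated exon, so its placing in coding sequence follows from the order of regions used. Apart from Fbxw7 and Fbxl16, then, no F-box 3' UTR cluster exceeded 55 reads.

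**Figure D4:**
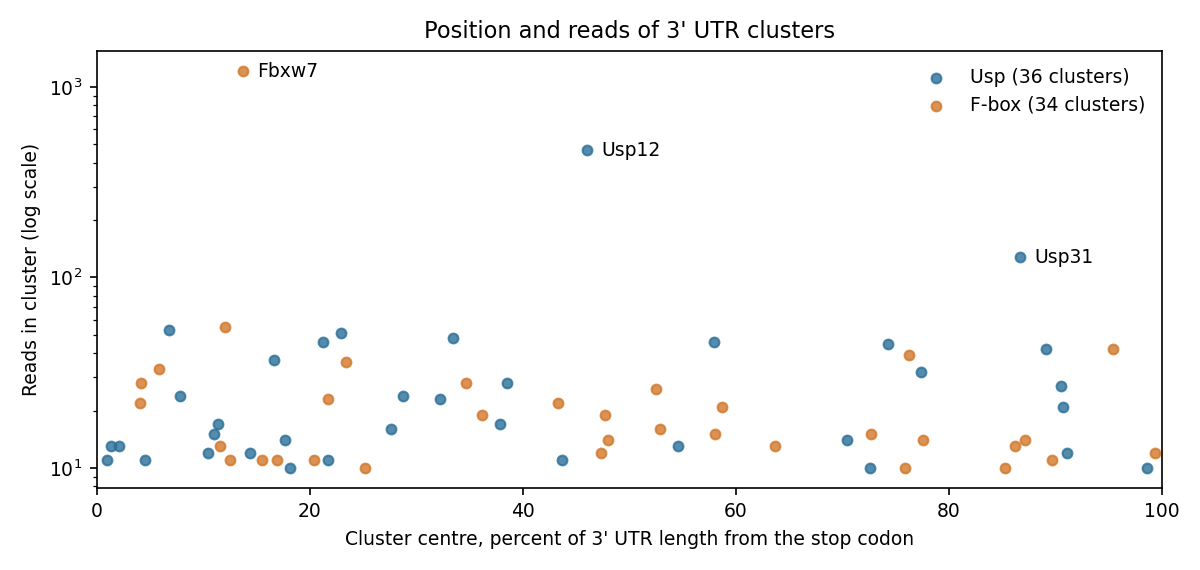
Points give the reads (log axis) of 36 Usp and 34 F-box 3' UTR clusters against the position of the cluster's centre, in percent of the 3' UTR length from the stop codon. The 3 named clusters (Fbxw7, Usp12 and Usp31) lie at different places along the 3' UTR.

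Within the 3' UTR, the centre of Usp clusters lay at a median of 30.5% of the length from the stop codon, that of F-box clusters at 47.5%, and that of all genes at 41.4%. An annotated exon was touched by 37 of the 38 Usp and 37 of the 39 F-box 3' UTR clusters. Nearly all of those sat inside a single exon: 36 of 37 Usp clusters (97.3%) and 34 of 37 F-box clusters (91.9%). In all genes it was 92.0% of the clusters that touched an exon. Coding clusters were different. Only 21 of 96 Usp coding clusters (21.9%, 14.8 to 31.1) lay wholly inside an annotated exon, against 32.6% of all genes, while 21 of 49 F-box coding clusters did (42.9%, 30.0 to 56.7). The other 75 Usp and 28 F-box coding clusters ran over the edge of an exon. Exon length and the aligner's treatment of spliced reads were not tested.

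Matches to the 16 fixed brain families were about as frequent in 3' UTR clusters of the members as elsewhere. At least 1 was present in 25 of 38 Usp clusters (65.8%, 49.9 to 78.8) and 25 of 39 F-box clusters (64.1%, 48.4 to 77.3), against 68.1% of all 9458 3' UTR clusters. The miR-128 6-mer was in 6 Usp and 6 F-box clusters, together 15.6% (9.15 to 25.3) against 13.4% of all. The miR-27 6-mer, which is the miR-128 6-mer shifted by 1 base and often counted in the same place, was in 5 and 5 clusters, 13.0% against 13.1%. For miR-29 the counts were 2 and 5 (9.09% against 8.65%), for miR-181 3 and 3 (7.79% against 7.26%) and for miR-124 2 and 4 (7.79% against 10.3%). None of these shares can be told from that of all genes at this number of clusters.

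The reads behind these matches were unequal. The deepest miR-181 cluster was that of Usp12 (468 reads), and the next were in Usp31 (13), Fbxl17 (13 and 12), Usp15 (12) and Fbxw11 (11). Clusters with a miR-27 match were led by Usp37 (46), Usp31 (45 and 28), Fbxo25 (21), Fbxl20 (16) and Fbxo34 (15). Those with a miR-124 match were led by Usp32 (48), Fbxo42 (28), Fbxo44 (24), Fbxo41 (14), Fbxl17 (13) and Usp15 (12), and those with a miR-29 match by Usp31 (27), Fbxo31 (14), Fbxo41 (14), Fbxo10 (13) and Usp12 (12). Behind Fbxo3 and Usp37, the miR-128 clusters were in Usp31 (27 and 13), Usp32 (18), Fbxl20 (16), Usp46 (14), Fbxo31 (14), Fbxo42 (13), Fbxo10 (10), Fbxw5 (10) and Usp9x (10). Except for that of Usp12, each of these clusters held 55 reads or fewer. The Fbxl17 cluster of 13 reads touched no annotated exon, and that of 12 reads had 86 of its 136 bases in one. That of Fbxo44 lay in exon 2 of 6 and is also named as CDS.

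Few families lay outside the share of all genes. The miR-103 6-mer, shared by its family, was in 13 of the 77 clusters (16.9%, 10.1 to 26.8), 7 Usp and 6 F-box, against 9.57% of all. The miR-138 6-mer was in 6 of the 39 F-box clusters (15.4%, 7.25 to 29.7), each in a different gene, against 5.06% of all, and in 1 of the 38 Usp clusters. These were the only brain families for which the share of all genes lay below an interval, and for none of the 16 did it lay above. Each stood out in only 1 set. For miR-103 this was the 77 clusters together, since the Usp interval (9.22 to 33.4) and the F-box interval (7.25 to 29.7) each held 9.57%. For miR-138 it was the F-box clusters, since the interval of the 77 (4.47 to 17.6) held 5.06%. Where the sequence of these F-box clusters could be read, only the miR-138 site of Fbxo7 also paired with base 8. Over all genes 2.04% of readable 3' UTR clusters held such a site. The cluster of Fbxo44 is also named as CDS and lay in exon 2 of 6. With 16 families looked at in several sets of clusters, a few intervals can miss the share of all genes by counting error alone. In Usp clusters alone, 0 of 16 lay outside. The let-7 6-mer was in 1 F-box cluster, in Fbxo42, and in 0 of 38 Usp clusters, against 4.13% of all. The miR-137 6-mer was in 0 of 77, against 3.29% of all. By the limit of 3 counts that a count of 0 allows, shares of up to 7.89% and 3.90% remain possible, and the Wilson upper limits are 9.18% and 4.75%.

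**Figure D5:**
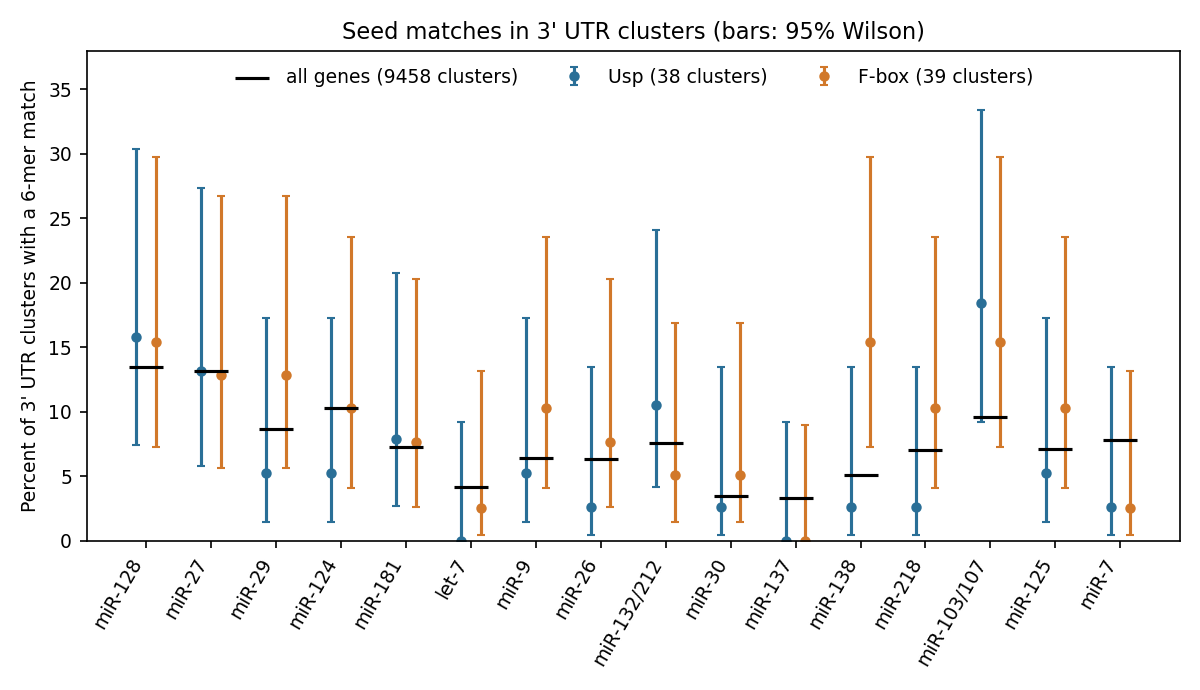
Points give the percent of Usp (38) and F-box (39) 3' UTR clusters with a 6-mer match to each of 16 brain miRNA families, with 95% Wilson intervals, and black lines the percent of all 9458 3' UTR clusters. The interval of F-box clusters lies above the line for miR-138, and the other intervals of single families of genes cross their lines.

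Longer pairing was checked where a cluster lay wholly in an exon and its sequence could be read, for 15 of the 16 families. Of 35 Usp sites in 3' UTR clusters, 10 also paired with base 8 (28.6%, 16.3 to 45.1), and of 47 F-box sites 15 did (31.9%, 20.4 to 46.2), against 32.5% of 9793 sites in all genes. Full 8-mers numbered 3 of the 35 Usp sites (8.57%) and 9 of the 47 F-box sites (19.1%), against 11.4% of sites in all genes, with no test. Usp sites lay within 25 bases of the cluster's centre in 17 of 35 cases (48.6%, 33.0 to 64.4) and F-box sites in 14 of 47 (29.8%, 18.7 to 44.0), against 34.6%. Several sites can share a cluster, so sites are not independent of each other.

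For miR-128 in particular, 0 of the 5 readable Usp sites and 2 of the 5 readable F-box sites (Fbxl20 and Fbxo31) paired with base 8, against 33.8% of 1206 sites in all genes. The deepest such site, that of Fbxo3, is preceded by a G, as were 3 of 5 F-box and 1 of 5 Usp sites and 26.9% of sites in all genes. A G before the site gives GACTGT, the same word of the adapter as in Usp38. GACTGT was present in 7 of 34 F-box (20.6%) and 4 of 36 Usp (11.1%) readable 3' UTR clusters, against 9.85% in all genes. In readable coding clusters it was in 4 of 21 Usp (19.0%) and 0 of 21 F-box clusters, against 6.79%, and the Usp clusters included the one of 110 reads in Usp38. The part of the adapter in these clusters was not tested.

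In coding clusters, 61 of 96 Usp clusters (63.5%, 53.6 to 72.5) and 25 of 49 F-box clusters (51.0%, 37.5 to 64.4) matched at least 1 brain family, against 60.6% of all genes. Matches were counted over the whole cluster, and 75 Usp and 28 F-box coding clusters ran over the edge of an exon. In those, the deepest of Usp22 and Usp24 among them, a match may lie outside the coding sequence. The miR-124 6-mer was in 11 Usp coding clusters (11.5%, 6.52 to 19.4) against 6.61% of all, which lies just inside the interval. The miR-137 6-mer was in 4 (4.17%, 1.63 to 10.2) against 1.60%, just outside it. Of families of other tissues, miR-205 was in 4 Usp coding clusters (4.17%, upper limit 10.2) against 10.7%. No family of either list lay outside the interval in F-box coding clusters.

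Intronic clusters were counted by the number per gene. Fbxl17, a receptor in the quality control of protein dimers, had 27 of them with 10 to 63 reads, 627 reads in all, spread over 437.6 kb of intron. That is 6.17 clusters per 100 kb, against a median of 4.98 for F-box genes and 4.99 for Usp genes with such clusters, and 5.16 for all genes. Usp24 had 11, Fbxo34 8 and Fbxo11 7. Usp25 and the imprinted gene Usp29 had 7 each and no exonic cluster, and Usp15, Usp34, Usp45 and Usp54 had 6 each. Fbxw7, Fbxo3 and Fbxl5 had 4 each. The deepest were in Usp28, a protease that stabilises Myc, with 120 reads (chr9:49007100-49007221), in Usp6nl with 106 and in Usp24 with 104. In F-box genes they were in Fbxl17 with 63, in Fbxl5, the iron-dependent receptor, with 62 and in Fbxo28 with 56. Of all 448 clusters, 1 overlapped an annotated small RNA, a 24-read cluster in an intron of Fbxo3.

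Clusters in 5' UTRs were few and shallow. In Usp genes they were in Usp49 with 28 reads and in Usp53 with 11. In F-box genes they included those of Fbxo25 with 12 reads, Fbxl16 with 11 and Fbxl18 with 10.

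The table also names circular RNAs whose span takes in a cluster. Such identifiers were attached to 50 Usp clusters (19.6%, 15.2 to 24.9) and 20 F-box clusters (10.4%, 6.81 to 15.5), against 15.5% of all. They were in 27 of 96 Usp coding clusters (28.1%) and 9 of 49 F-box coding clusters (18.4%), against 26.5% of all coding clusters, and in 23 of 119 Usp introns (19.3%) and 10 of 101 F-box introns (9.90%), against 14.6%. In 3' UTRs they were in 0 of 38 Usp clusters (upper limit 9.18%) and 1 of 39 F-box clusters (2.56%, 0.454 to 13.2), against 4.41% of all 3' UTR clusters. Usp34 alone had 9 such clusters. An identifier marks an overlap of positions, and whether a read came from a circular or a linear RNA cannot be told apart here.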

How the data were processed

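The deposited table holds 1 whole-number read count per cluster, with no normalization named, and 0 columns for a single library. The miRNA columns count seed 6-mers per cluster. The submitters' processing notes name BWA and the mouse build mm10. Not given in the sources used here are the cluster caller, which libraries entered, how controls served and whether PCR duplicates were removed. The comparison of Flag-Ago2 with control libraries could not be run, so counts, medians and shares with Wilson intervals were computed (Python 3.11.15, pandas 2.3.3, scipy 1.17.1). The counting was tested on simulated tables.

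Each cluster was given 1 region per gene by priority: 3' UTR, then CDS, then 5' UTR, then intron. Lengths, exons and site sequences are from GENCODE M21, to which all 88 members matched, 1 of them (Fbxo18) through an older symbol. In 114 clusters whose sequence could be read, all 1998 counts of 6-mers equalled those of the table. Members and lists, cell type markers included, were chosen with earlier results of these data known. Named genes are, per family, the 10 with the most exonic reads, the 3 with the most per kb, those with the most intronic or 3' UTR clusters, every gene with a 5' UTR cluster, the deepest clusters by region and by seed, and the 2 leading genes of each pathway list. One item that this rule would name is not reported here.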

Additional observations from a re-analysis of the deposited data

Results flagged for a closer look

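Reads on the strand opposite to a Usp or F-box gene were outside the counts above. They formed 12 clusters of 10 to 40 reads, 204 reads in all, opposite 11 genes of the families. These were picked out because they lie on a strand that no count above uses. Since the lowest count in the table is 10 reads, their being above 0 is no test, and the level in control libraries cannot be separated. How many of all genes have such a cluster was not counted. In 9 of the 12 no sense gene is named, and 3 lie in another gene on their own strand, 2 opposite Usp37 within Cnot9 and 1 opposite Usp54. The deepest, 40 reads, was opposite Fbxw22, one of the genes on chromosome 9 that are named in no sense cluster. It lies in the array of similar copies, so its reads carry the uncertainty given above for that array. Fbxl13, opposite a cluster of 10 reads, was likewise named in no sense cluster.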

How the results depend on the processing

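For 22 results, 106 values were recomputed under other settings, and 12 of them moved. The other 94 stayed within 1.5 times the value first given (counts, medians and the coding share of reads) or within its Wilson interval (other shares). Many of the 94 could not move, so their number does not measure stability. Counting every region that a cluster names alters only the 3' UTR share. Leaving out Usp6nl alters no F-box value and no exonic Usp value. Leaving out clusters that name another gene removes no Usp cluster. With only clusters of 20 reads or more, the Usp genes with a 3' UTR cluster fell from 18 to 11. The median exonic cluster rose to 33 reads in Usp and 31 in F-box genes by construction, and among F-box 3' UTR clusters the share with miR-128 became 5.88% and that with miR-29 0%. With a match to bases 2 to 8, read only in the 36 Usp and 34 F-box 3' UTR clusters that lie wholly in an exon, miR-128 was in 0% of Usp and 5.88% of F-box clusters (4.72% over all genes), miR-29 in 0% and 2.94% (4.15%), and let-7 in 0% of F-box clusters (1.63%). Without the deepest exonic cluster of the F-box family, that of Fbxw7, exonic reads of the family came to 2232 and the coding share of those reads to 59.0%, against 3450 and 38.1%. This alternative, and the coding share of exonic reads, were added after seeing the data. The longer miR-124 match was not run. No paired analysis was possible because the table has no columns for single libraries, and for the same reason no replicate could be left out. Pooling also leaves depth per library unknown, and clusters under 10 reads were not analysed here, so a gene in no cluster may still be bound.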

Other observations

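Other genes of the ubiquitin system, from lists written for this comparison, had exonic clusters as follows. For scale, 43.7% of all protein-coding genes were in the table, and 81.4% of all genes in the table had an exonic cluster. In the table were 23 of 23 HECT ligases, 24 of 28 other deubiquitinases and 29 of 31 genes of ubiquitin and its activating and conjugating enzymes. So were 14 of 15 SCF core genes and 4 of 7 F-box proteins with other names. HECT ligases, which pass ubiquitin through their own active site, had them in 21 of 23 genes, with a median of 130 exonic reads, against 48 over all genes with such a cluster. The leading genes were Hectd4 with 766 reads, 735 of them in 24 coding clusters, and Herc2 with 408. Deubiquitinases without a Usp symbol had them in 20 of 28 genes (median 69.5), led by Cyld, a protease for linear and lysine-linked chains, with 362 reads in 11 clusters, and Bap1, which acts on histones, with 114. Ubiquitin genes and activating and conjugating enzymes had them in 23 of 31 (median 52). Ube2e1 led with 386 reads, all in 1 cluster of the 3' UTR, followed by Ube2r2 with 272, all in 1 coding cluster. The SCF core and its cullin regulators had them in 12 of 15 (median 40), led by the Nedd8-conjugating enzyme Ube2m with 124 and the F-box partner Skp1a with 120. F-box proteins named outside the Fbx pattern had them in 4 of 7 (median 91.5), led by Btrc, the paralogue of Fbxw11, with 167 reads and the histone demethylase Kdm2a with 115.

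Read per kb of exon, the medians lay closer together: 16.2 for HECT ligases, 18.1 for ubiquitin and its activating and conjugating enzymes, 14.0 for the SCF core, 12.6 for other deubiquitinases and 11.0 for the other F-box proteins, against 12.9 over all genes with an exonic cluster. These are counts in one pooled set of reads, with no test.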
